A study of Mus musculus with 12 samples.

Results

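The genes followed here are 33 mouse genes of red cell development: transcription factors of the erythroid line, receptors for erythropoietin and transferrin, proteins of the red cell membrane, carbonic anhydrases and a water channel, and the enzymes and carriers of haem synthesis. They were taken as a named list, without the globins, and the rule for membership uses no measured value, though the list was drawn up with earlier results of these data known. All 33 were present among the 38887 gene identifiers of the count table. Their polyadenylated RNA was measured in Ly6G+ spleen cells, which the labels call PMN-MDSC, polymorphonuclear myeloid-derived suppressor cells. Ly6G is a surface protein of neutrophils. The mice were 2 days, 7 days, 14 days and 6 weeks old, with 3 libraries per age and 12 in all. No treatment, genotype, strain or sex stands in the labels used here, nor the number of mice behind a library. It is therefore not known whether the 3 libraries of an age are separate mice, and p-values measure the spread between libraries, which may be technical. The series title names the short-lived suppressive activity of neutrophils in newborns as its subject.

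Red cell precursors are driven by erythropoietin through its receptor Epor and by a set of DNA-binding proteins led by Gata1, Tal1 and Klf1. They take up iron through the transferrin receptor, send it into mitochondria and build haem there and in the cytosol, beginning with the erythroid enzyme Alas2. Late in maturation they lay down a membrane skeleton of spectrin, ankyrin and protein 4.1 that is tied to the anion exchanger Slc4a1 and the Rh proteins. The spleen of the newborn mouse is a blood-forming organ that makes red cells.

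Totals ran from 34495767 to 38795913 counts per library. Neutrophil genes were strongly expressed in every library: the summed level of 12 neutrophil genes, Ly6g among them, ran from 73569 to 110302 CPM (counts scaled to the normalized library size), and none of the 12 was at 0 at any age. A pair of libraries stood apart from the others of their age. Replicate 2 of 2 days had Spearman correlations across genes of 0.9705 and 0.9803 with the other 2-day libraries, which correlated at 0.9916 with each other, and replicate 1 of 14 days had 0.9856 and 0.9863 against 0.9944. Genes are not independent replicates, so these values only describe the libraries. Levels below are CPM in replicates 1, 2 and 3 or mean ± SD of 3 libraries, and a log2 fold change is the older age over the younger, ± its SE. A gene was called when its adjusted p was below 0.05 by edgeR's quasi-likelihood test with Benjamini-Hochberg adjustment over the 15494 genes tested. In sorted populations measured in bulk, fewer cells of a type and less RNA per cell cannot be told apart.

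All 33 genes differed between ages in the joint test, in which 69.2% of all genes tested were called. Every one of them passed the filter on low counts, but some did so only through the ages at which they were high, so this count is a description. At 7 days against 2 days, 22 of the 33 were higher and 1 was lower, where 22.9% of all genes were called higher and 25.8% lower. The median log2 fold change of the 33 was 1.49, against -0.01 over all genes. At 14 days against 7 days, 31 were lower and 1 was higher, where 24% of all genes were called higher and 21.9% lower, with a median of -3.84 against 0.02 over all genes. These comparisons share the 7-day libraries, so they are not independent of each other. Of the 33, at 6 weeks against 14 days, 2 were higher and 4 lower, close to the shares over all genes of 9.26% higher and 9.68% lower.

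Set against the first days of life, the levels at the later ages were mostly lower. At 14 days against 2 days, 23 of the 33 were lower and 0 higher, where 12.8% of all genes were called higher and 12.3% lower. The count of 0 is from edgeR's quasi-likelihood test, and 0 of the 33 were higher at an unadjusted p below 0.05 as well. By DESeq2 and limma-voom the count was also 0, while scaling by library totals alone gave 1. The comparison of 6 weeks with 7 days had 30 lower and 0 higher, where 26.6% of all genes were called higher and 24.5% lower. That of 6 weeks with 2 days had 25 lower and 0 higher, where 19.7% of all genes were called higher and 20.7% lower. In both of these comparisons DESeq2, limma-voom and an unadjusted p below 0.05 gave 0 higher too. Without both libraries that stand apart, the counts were 24 higher and 1 lower at 7 days against 2 days, 1 higher and 31 lower at 14 days against 7 days, 3 higher and 6 lower at 6 weeks against 14 days, 1 higher and 26 lower at 14 days against 2 days, 0 higher and 30 lower at 6 weeks against 7 days, and 1 higher and 27 lower at 6 weeks against 2 days. Median log2 fold changes of the 33 were -2.09 at 14 days against 2 days, -3.70 at 6 weeks against 7 days and -1.74 at 6 weeks against 2 days. The medians over all genes lay between -0.04 and 0.01 in these 3 comparisons.

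**Figure D1:**
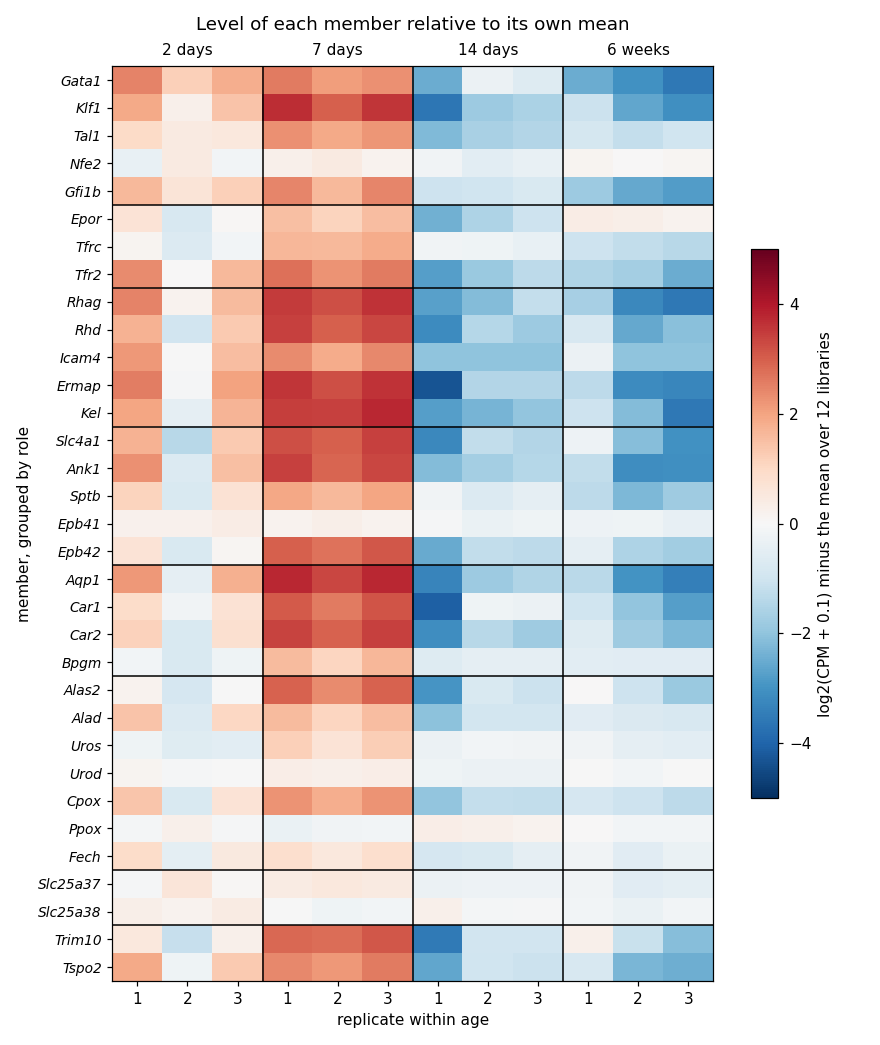
Level of each of the 33 genes in each of the 12 libraries, as log2(CPM + 0.1) minus the gene's own mean over the libraries, with genes in rows by role and libraries in columns by age. The 3 columns of 7 days are the highest for most genes, with a mean that is highest at that age for 30 of 33, and replicate 2 of 2 days is paler than its neighbours.

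Promoter sequences are shown for 6 of the genes because the list is headed by a GATA-binding factor and the genes differ in how far their levels moved. RefSeq windows of build GRCm38.p6, from 250 bases before a transcript start to 50 after it, were at hand for 26 of the 33 genes (34 windows). The GATA letters searched were AGATAA and, with the other first base, TGATAA, as well as the form that ends in G, AGATAG, which may likewise open with the other base as TGATAG. At least one of them, on either strand, was in 18 of the 34 windows, or 52.9%, and in 17 of the 26 genes. The same letters were in 29.8% of all 32851 windows of the table. That share is per window, and no share per gene was computed. Genes with more than 1 window have more chances of a match, so 17 of 26 cannot be set against it. The letters CCACACCC, a form of the CACCC box bound by Klf1, were in 1 window, that of Tfr2, or 2.94% against 3.56% of all windows. That window held no GATA letters. Other forms of the CACCC box were not searched, so these shares do not say how many windows hold such a box. A match is a description of these letters and not a bound site. The windows below are 5′ to 3′ on the gene's strand, with the GATA letters of either strand in capitals: Klf1 (chr8:84901732-84902031, + strand), Epor (chr9:21963527-21963826, − strand), Rhag (chr17:40810899-40811198, + strand), Kel (chr6:41704276-41704575, − strand), Alas2 (chrX:150547167-150547466, + strand) and Ppox (chr1:171281137-171281436, − strand).
Klf1: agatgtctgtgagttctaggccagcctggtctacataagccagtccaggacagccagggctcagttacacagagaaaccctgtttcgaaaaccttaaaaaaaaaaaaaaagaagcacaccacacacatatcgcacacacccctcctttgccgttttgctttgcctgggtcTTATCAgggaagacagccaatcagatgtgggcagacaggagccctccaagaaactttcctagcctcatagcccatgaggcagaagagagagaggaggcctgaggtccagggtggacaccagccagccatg
Epor: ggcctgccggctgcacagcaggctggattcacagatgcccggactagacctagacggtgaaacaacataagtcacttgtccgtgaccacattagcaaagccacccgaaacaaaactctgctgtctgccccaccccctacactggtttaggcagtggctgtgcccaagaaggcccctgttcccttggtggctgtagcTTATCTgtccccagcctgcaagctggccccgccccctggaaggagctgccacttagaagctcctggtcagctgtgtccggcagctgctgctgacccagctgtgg
Rhag: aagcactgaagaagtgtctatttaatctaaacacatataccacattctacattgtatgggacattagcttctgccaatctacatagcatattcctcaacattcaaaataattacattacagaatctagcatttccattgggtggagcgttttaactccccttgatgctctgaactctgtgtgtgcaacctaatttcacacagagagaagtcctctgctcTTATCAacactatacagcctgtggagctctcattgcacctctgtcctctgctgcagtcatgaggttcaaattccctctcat
Kel: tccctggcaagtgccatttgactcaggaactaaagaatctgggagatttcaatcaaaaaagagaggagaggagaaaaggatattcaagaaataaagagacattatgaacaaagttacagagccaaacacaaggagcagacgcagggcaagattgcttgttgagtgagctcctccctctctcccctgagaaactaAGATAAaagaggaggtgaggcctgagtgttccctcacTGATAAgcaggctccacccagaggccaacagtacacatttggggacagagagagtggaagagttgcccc
Alas2: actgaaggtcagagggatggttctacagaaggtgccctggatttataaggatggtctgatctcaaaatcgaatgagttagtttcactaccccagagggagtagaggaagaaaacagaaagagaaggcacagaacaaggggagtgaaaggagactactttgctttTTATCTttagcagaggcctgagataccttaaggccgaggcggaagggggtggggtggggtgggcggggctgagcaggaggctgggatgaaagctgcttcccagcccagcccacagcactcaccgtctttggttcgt
Ppox: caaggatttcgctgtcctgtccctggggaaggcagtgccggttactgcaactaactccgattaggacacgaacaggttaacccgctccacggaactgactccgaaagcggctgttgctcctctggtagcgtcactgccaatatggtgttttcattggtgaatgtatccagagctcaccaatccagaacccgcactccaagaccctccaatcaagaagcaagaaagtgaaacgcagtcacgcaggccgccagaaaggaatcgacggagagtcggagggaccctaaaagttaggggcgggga

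The letters began 80 bases before the start in Klf1, 54 in Epor, 31 in Rhag and 86 in Alas2. Kel held a pair of them, 56 and 19 bases before its start. The window of Ppox, the enzyme whose level moved against the other genes at 14 days, held none of the letters searched. That says only that these letters are not in this window. Among the genes with no window in the table, Slc4a1 lies on chromosome 11, 102348824 to 102366203, Ank1 on chromosome 8, 22974844 to 23150497, Car1 on chromosome 3, 14766216 to 14808368, Car2 on chromosome 3, 14886273 to 14900770, Nfe2 on chromosome 15, 103248212 to 103258403 and Slc25a37 on chromosome 14, 69241848 to 69285112 (GENCODE M21, GRCm38), and Fech was the other. Windows of Gata1, Tfrc, Aqp1, Bpgm, Alad, Urod, Slc25a38 and Tspo2 held none of the GATA letters either, and their highest mean level was between 1.41 times (Slc25a38) and 65.3 times (Aqp1) the lowest.

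Of the 5 erythroid transcription factors 3 were higher at 7 days than at 2 days, and all were lower at 14 days than at 7 days. Gata1, the zinc-finger factor that defines the erythroid and megakaryocyte lines, had 17.9, 7.21 and 11.2 CPM at 2 days and 19.1, 13.5 and 15.5 CPM at 7 days. Levels were 0.467, 2.53 and 1.92 CPM at 14 days and 0.474, 0.291 and 0.164 CPM at 6 weeks. Libraries of 2 and 7 days overlapped, and all 6 stood above every library of 14 days and 6 weeks. Gata1 was not called at 7 days against 2 days (log2 fold change 0.40 ± 0.43, adjusted p = 0.455). Gata1 was lower at 14 days than at 7 days (log2 fold change -3.28 ± 0.48, adjusted p = 0.000213) and lower again at 6 weeks than at 14 days (log2 fold change -2.40 ± 0.60, adjusted p = 0.0154). The last call was lost without replicate 2 of 14 days (-1.96), replicate 2 of 6 weeks (-2.36) or replicate 3 of 6 weeks (-2.10), and with limma-voom (-2.19, adjusted p = 0.0978). The 6-week mean of Gata1 was the lowest of the 4 ages, and the 7-day mean was 51.8 times as high. These later levels of Gata1 stand for 16, 93 and 71 counts at 14 days and 17, 11 and 6 counts at 6 weeks, so that ratio is imprecise.

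Klf1, the factor that switches on adult globin and membrane genes, had 9.76, 3.06 and 7.01 CPM at 2 days and 34.0, 21.1 and 31.7 CPM at 7 days. The 14-day libraries had 0.117, 0.653 and 0.782 CPM, and the 6-week libraries had 1.17, 0.344 and 0.219 CPM. All 7-day libraries were above all 2-day libraries, and both ages were above every later library. Klf1 was higher at 7 days than at 2 days (log2 fold change 2.12 ± 0.50, adjusted p = 0.00422) and lower at 14 days than at 7 days (log2 fold change -5.78 ± 0.64, adjusted p = 2.96e-05). Tal1, the helix-loop-helix partner of Gata1, had 17.1, 12.1 and 12.8 CPM at 2 days and 43.7, 33.3 and 40.9 CPM at 7 days. Its later levels were 1.81, 2.78 and 3.16 CPM at 14 days and 4.79, 3.84 and 4.37 CPM at 6 weeks. Its 6-week libraries were all above its 14-day libraries, which was not so for Gata1 or Klf1. Tal1 was higher at 7 days than at 2 days (log2 fold change 1.49 ± 0.20, adjusted p = 7.99e-05), lower at 14 days than at 7 days (log2 fold change -3.92 ± 0.22, adjusted p = 3.72e-07), and higher at 6 weeks than at 14 days (log2 fold change 0.74 ± 0.21, adjusted p = 0.0292). The last call was lost without any 1 of replicate 3 of 7 days (0.74), replicates 1 and 2 of 14 days (0.55 and 0.79) and replicates 1 and 3 of 6 weeks (0.67 and 0.74), and with limma-voom, library totals alone or a fit of the 2 ages alone (adjusted p from 0.052 to 0.127).

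Gfi1b, a repressor that acts with Gata1 in red cell and platelet precursors, had 8.38, 4.25 and 6.25 CPM at 2 days and 14.8, 8.52 and 14.9 CPM at 7 days. Gfi1b had 1.25, 1.31 and 1.54 CPM at 14 days and 0.697, 0.371 and 0.301 CPM at 6 weeks. The lowest 7-day library was just above the highest 2-day library. Gfi1b was higher at 7 days than at 2 days (log2 fold change 1.02 ± 0.29, adjusted p = 0.0131), a call lost without replicate 1 of 7 days (0.94, adjusted p = 0.0506) or replicate 3 of 7 days (0.94, adjusted p = 0.051). Gfi1b was lower at 14 days than at 7 days (log2 fold change -3.22 ± 0.33, adjusted p = 1.81e-05) and lower at 6 weeks than at 14 days (log2 fold change -1.58 ± 0.38, adjusted p = 0.0122), the last not without replicate 3 of 6 weeks (-1.36) and not with limma-voom (adjusted p = 0.0555). Nfe2, the blood-cell subunit of a factor that acts at globin and platelet genes, had 365 ± 108 CPM at 2 days, 438 ± 41.9 CPM at 7 days, 280.4 ± 32.7 CPM at 14 days and 382 ± 14.8 CPM at 6 weeks, and its highest mean was 1.56 times its lowest. Nfe2 was lower at 14 days than at 7 days (log2 fold change -0.64 ± 0.18, adjusted p = 0.012) and not called at 7 days against 2 days (log2 fold change 0.26 ± 0.18, adjusted p = 0.252). Without replicate 2 of 2 days, its highest 2-day library, the last value was 0.55 (adjusted p = 0.00328). Per kilobase of exon, Nfe2 was the most abundant of the 33 at every age (122, 146, 93.8 and 128 CPM per kilobase at 2 days, 7 days, 14 days and 6 weeks).

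**Figure D2:**
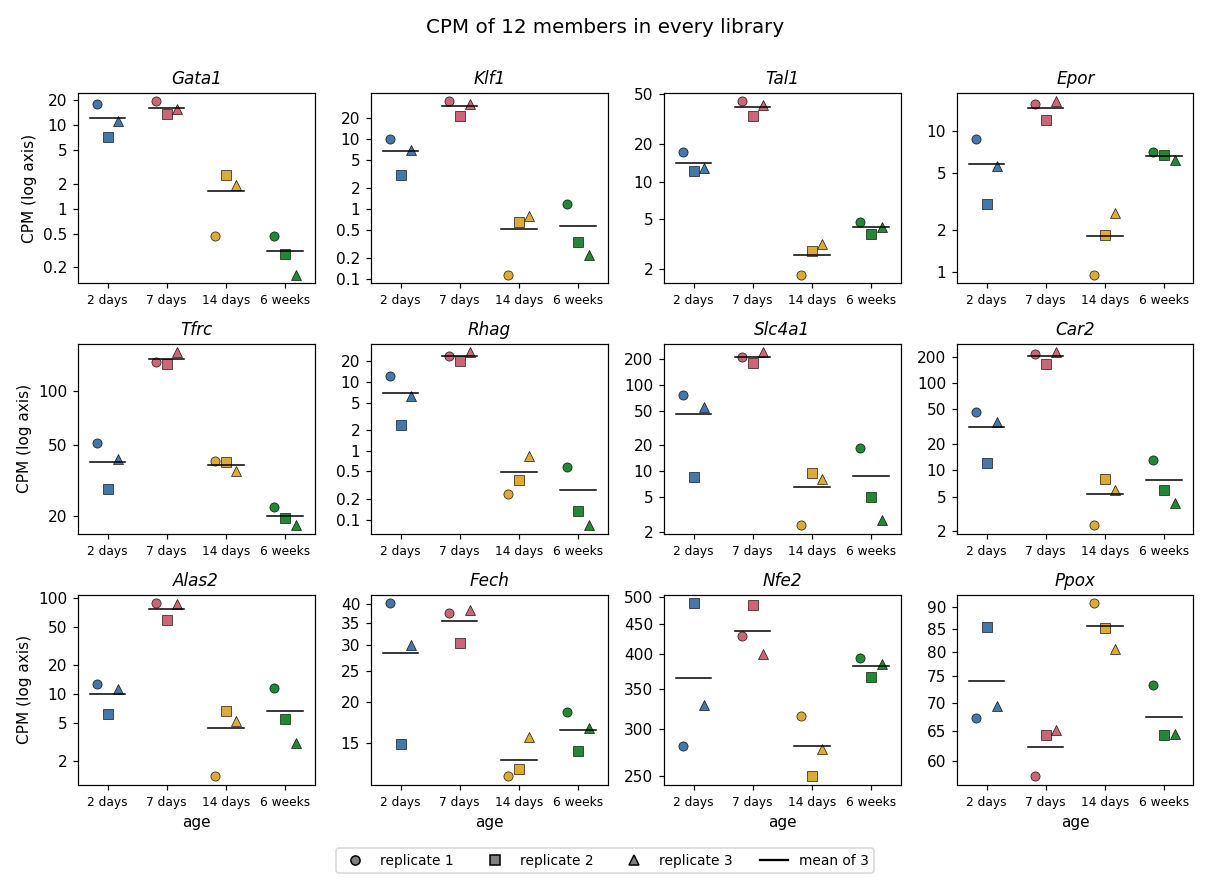
CPM on a log axis of 12 of the genes in each library, by age, with a symbol for each replicate and a line at the mean of 3 libraries. Gata1, Klf1 and Rhag lie at 2.53 CPM or below in every library of 14 days and 6 weeks, whereas the 3 libraries of 6 weeks lie close together for Epor (6.18 to 7.11 CPM), and Ppox has its highest mean at 14 days.

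Among the receptors, Epor and Tfrc were higher at 7 days than at 2 days, and Epor was higher and Tfrc lower at 6 weeks than at 14 days. Epor, the receptor through which erythropoietin keeps red cell precursors alive, had 8.81, 3.06 and 5.62 CPM at 2 days and 15.6, 11.9 and 16.2 CPM at 7 days. It had 0.963, 1.82 and 2.64 CPM at 14 days and 7.11, 6.75 and 6.18 CPM at 6 weeks. The 6-week libraries lay within the range of the 2-day libraries and above all 14-day libraries. Epor was higher at 7 days than at 2 days (log2 fold change 1.31 ± 0.35, adjusted p = 0.00819), lower at 14 days than at 7 days (log2 fold change -3.00 ± 0.38, adjusted p = 7.59e-05) and higher at 6 weeks than at 14 days (log2 fold change 1.88 ± 0.37, adjusted p = 0.0046). The last call was lost in none of the fits that left out 1 library. Epor was not called at 6 weeks against 2 days (log2 fold change 0.19 ± 0.35, adjusted p = 0.695).

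Tfrc, transferrin receptor 1, which takes iron-laden transferrin into dividing cells and most of all into red cell precursors, had 51.0, 28.5 and 41.5 CPM at 2 days and 146, 142 and 165 CPM at 7 days. Levels were 40.7, 39.9 and 36.0 CPM at 14 days and 22.4, 19.6 and 17.7 CPM at 6 weeks. The 3 libraries of 7 days stood far above the rest, and those of 6 weeks were all below those of 14 days. Tfrc was higher at 7 days than at 2 days (log2 fold change 1.90 ± 0.18, adjusted p = 6.76e-06), lower at 14 days than at 7 days (log2 fold change -1.96 ± 0.18, adjusted p = 9.1e-06) and lower at 6 weeks than at 14 days (log2 fold change -0.97 ± 0.18, adjusted p = 0.00281). It was not called at 14 days against 2 days (log2 fold change -0.05 ± 0.17, adjusted p = 0.857). Since Tfrc is a gene of dividing cells, the 12 cell cycle genes are given beside it: their summed level ran from 363 to 684 CPM at 2 days, 1631 to 1772 CPM at 7 days, 931 to 999.7 CPM at 14 days and 432 to 627 CPM at 6 weeks. Their part in the level of Tfrc was not tested. Tfr2, the other transferrin receptor, which binds Epor in mouse red cell precursors, had 4.37 ± 2.99 CPM at 2 days, 8.38 ± 1.5 CPM at 7 days, 0.301 ± 0.184 CPM at 14 days and 0.309 ± 0.131 CPM at 6 weeks. Tfr2 was lower at 14 days than at 7 days (log2 fold change -4.77 ± 0.60, adjusted p = 7.23e-05) and not called at 7 days against 2 days (log2 fold change 0.93 ± 0.47, adjusted p = 0.122). With the replicate numbers as a block in a fit of those 2 ages alone, that value was 1.16 (adjusted p = 0.0354), and without replicate 1 of 2 days it was 1.58 (adjusted p = 0.0176).

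Genes of the Rh complex and of other blood group proteins had a median log2 fold change of -5.58 at 14 days against 7 days. Of the 5, 4 were higher at 7 days than at 2 days, and all were lower at 14 days than at 7 days. Rhag, the glycoprotein that carries the Rh complex to the membrane, had 12, 2.34 and 6.30 CPM at 2 days and 24, 19.9 and 26.7 CPM at 7 days. The 14-day libraries had 0.233, 0.381 and 0.836 CPM, and the 6-week libraries had 0.585, 0.132 and 0.0820 CPM. At 14 days and 6 weeks these levels stand for 8, 14 and 31 counts and for 21, 5 and 3 counts, while every earlier library was above 2 CPM. Rhag was higher at 7 days than at 2 days (log2 fold change 1.77 ± 0.52, adjusted p = 0.0135, 2.49 without replicate 1 of 2 days) and lower at 14 days than at 7 days (log2 fold change -5.58 ± 0.66, adjusted p = 4.64e-05, -6.24 without replicate 3 of 14 days). Its highest mean, at 7 days, was 88.4 times its lowest, at 6 weeks.

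Rhd, the mouse Rh antigen protein, had 6.69 ± 4.69 CPM at 2 days, 30.7 ± 4.55 CPM at 7 days, 0.720 ± 0.420 CPM at 14 days and 0.954 ± 0.702 CPM at 6 weeks, and was higher at 7 days than at 2 days (log2 fold change 2.19 ± 0.57, adjusted p = 0.00723) and lower at 14 days than at 7 days (log2 fold change -5.40 ± 0.69, adjusted p = 8.51e-05). Kel, the Kell blood group metalloprotease, had 4.77 ± 3.08 CPM at 2 days, 21.8 ± 2.82 CPM at 7 days, 0.275 ± 0.101 CPM at 14 days and 0.394 ± 0.382 CPM at 6 weeks, with the same pair of calls (log2 fold change 2.18 ± 0.53, adjusted p = 0.00505 at 7 days against 2 days, and log2 fold change -6.28 ± 0.71, adjusted p = 3.52e-05 at 14 days against 7 days). Ermap, the erythroblast membrane protein of the Scianna blood group, had 17.6 ± 12.3 CPM at 2 days, 54.6 ± 7.50 CPM at 7 days, 1.16 ± 0.878 CPM at 14 days and 0.909 ± 0.830 CPM at 6 weeks. It was lower at 14 days than at 7 days (log2 fold change -5.54 ± 0.79, adjusted p = 0.000168). Its call at 7 days against 2 days (log2 fold change 1.63 ± 0.63, adjusted p = 0.0489) was the least steady of the group. It was lost in 9 of the 12 fits that left out 1 library, those without replicate 2 or 3 of 2 days, any replicate of 7 days, or replicate 2 or 3 of 14 days or of 6 weeks (1.2 to 1.75, adjusted p from 0.0547 to 0.108). It was also lost with RLE factors (adjusted p = 0.0503), library totals alone (adjusted p = 0.0684) and DESeq2 (adjusted p = 0.125), and the value was 2.23 without replicate 1 of 2 days.

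Icam4, the adhesion molecule of the Landsteiner-Wiener blood group, had the fewest counts of the 33 (332 over all libraries), with 1.71, 0.296 and 1.07 CPM at 2 days and 1.94, 1.35 and 1.99 CPM at 7 days. Its later levels were 0, 0 and 0 CPM at 14 days and 0.223, 0 and 0 CPM at 6 weeks. It had 0 counts in all libraries of 14 days and in replicates 2 and 3 of 6 weeks. With a floor of 3 counts over the age, Icam4 was at least 63.6-fold lower at 14 days than at 7 days and at least 39.1-fold lower at 14 days than at 2 days. At 7 days against 2 days it was not called (log2 fold change 0.76 ± 0.72, adjusted p = 0.41). All exon bases of Icam4 are shared with the predicted gene Gm47079 on the other strand, and the strand setting of the counting is not given in the sources used here, so its reads may come from either gene. In the 2-day libraries all genes of this group were lowest in replicate 2. For Rhag the ratio of replicate 1 to replicate 2 was 5.12, and for Rhd it was 6.93.

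Of the anion exchanger and the membrane skeleton, 4 of 5 genes were higher at 7 days than at 2 days and 5 of 5 were lower at 14 days than at 7 days. Slc4a1, band 3, exchanges chloride for bicarbonate and anchors the skeleton; it had 76.0, 8.69 and 56.0 CPM at 2 days and 212, 183 and 240.3 CPM at 7 days. Slc4a1 had 2.36, 9.52 and 8.15 CPM at 14 days and 18.9, 5.11 and 2.71 CPM at 6 weeks. Replicate 2 of 2 days lay in the range of the later ages, and the other 2-day libraries were well above it. Slc4a1 was higher at 7 days than at 2 days (log2 fold change 2.17 ± 0.75, adjusted p = 0.0301), a call lost without replicate 3 of 2 days (2.36), replicate 1 of 7 days (2.21) or replicate 3 of 7 days (2.11), with adjusted p from 0.0585 to 0.0676. Slc4a1 was lower at 14 days than at 7 days (log2 fold change -4.98 ± 0.86, adjusted p = 0.000636). Ank1, ankyrin, which links band 3 to spectrin, had 27.5, 3.42 and 16.1 CPM at 2 days and 61.0, 42.4 and 57.7 CPM at 7 days. It had 1.17, 1.66 and 2.02 CPM at 14 days and 2.31, 0.556 and 0.574 CPM at 6 weeks. Its 7-day libraries were all above its 2-day libraries. Ank1 was higher at 7 days than at 2 days (log2 fold change 1.77 ± 0.58, adjusted p = 0.0231, 2.5 without replicate 1 of 2 days), and this call too was lost without replicate 3 of 2 days (1.83), replicate 1 of 7 days (1.71) or replicate 3 of 7 days (1.76), with adjusted p from 0.0566 to 0.0626. Ank1 was lower at 14 days than at 7 days (log2 fold change -5.05 ± 0.69, adjusted p = 0.000128).

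Epb42, protein 4.2, which steadies band 3 on ankyrin, had 3.47, 1.22 and 2.27 CPM at 2 days and 17.6, 14.4 and 19.0 CPM at 7 days. Levels were 0.292, 0.844 and 0.809 CPM at 14 days and 1.56, 0.662 and 0.574 CPM at 6 weeks. Every 7-day library was above every library of the other ages, and it was higher at 7 days than at 2 days (log2 fold change 2.86 ± 0.42, adjusted p = 0.000174) and lower at 14 days than at 7 days (log2 fold change -4.70 ± 0.48, adjusted p = 1.73e-05). Sptb, beta spectrin, had 24.5 ± 13.6 CPM at 2 days, 60.8 ± 7.80 CPM at 7 days, 12.5 ± 2.36 CPM at 14 days and 5.03 ± 1.66 CPM at 6 weeks, and was higher at 7 days than at 2 days (log2 fold change 1.31 ± 0.37, adjusted p = 0.0111) and lower at 14 days than at 7 days (log2 fold change -2.28 ± 0.38, adjusted p = 0.000511). It was 1 of the 4 genes called lower at 6 weeks than at 14 days (log2 fold change -1.32 ± 0.39, adjusted p = 0.0325). That call was lost with limma-voom (adjusted p = 0.0683) and without replicate 1 or 3 of 7 days, any replicate of 14 days, or replicate 2 or 3 of 6 weeks (-1.45 to -1.11). Epb41, protein 4.1, which joins spectrin to actin and is made in many cell types, had 190.3 ± 11.2 CPM at 2 days, 184 ± 7.70 CPM at 7 days, 139 ± 13.7 CPM at 14 days and 130.1 ± 9.55 CPM at 6 weeks. It was not called at 7 days against 2 days (log2 fold change -0.05 ± 0.11, adjusted p = 0.738), where its sign turned with library totals alone (0.10), and was lower at 14 days than at 7 days (log2 fold change -0.41 ± 0.11, adjusted p = 0.00812).

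The water channel, the carbonic anhydrases and Bpgm were higher at 7 days than at 2 days in 4 of 4 and lower at 14 days than at 7 days in 4 of 4. Car2, a carbonic anhydrase of red cells that turns carbon dioxide and water into bicarbonate, had 46.5, 12.2 and 35.6 CPM at 2 days and 215, 163 and 223 CPM at 7 days. The 14-day libraries had 2.33, 7.89 and 5.96 CPM, and the 6-week libraries had 13.2, 5.91 and 4.24 CPM. The 7-day libraries were above all others, and replicate 2 of 2 days was below replicate 1 of 6 weeks. Car2 was higher at 7 days than at 2 days (log2 fold change 2.67 ± 0.52, adjusted p = 0.00125) and lower at 14 days than at 7 days (log2 fold change -5.21 ± 0.59, adjusted p = 3.81e-05). Per kilobase of exon, Car2 at 7 days (82.7 CPM per kilobase) was below Nfe2 alone among the 33. Car1, the carbonic anhydrase that is typical of mature red cells, had 4.93, 2.24 and 4.30 CPM at 2 days and 22.4, 16.1 and 23.8 CPM at 7 days. Its later levels were 0.0584, 2.18 and 2.08 CPM at 14 days and 1.25, 0.583 and 0.301 CPM at 6 weeks. Of the 14-day libraries, replicate 1 lay far below the other two. Car1 was higher at 7 days than at 2 days (log2 fold change 2.43 ± 0.63, adjusted p = 0.00712) and lower at 14 days than at 7 days (log2 fold change -3.84 ± 0.69, adjusted p = 0.000785). It was not called at 6 weeks against 14 days (log2 fold change -1.02 ± 0.74, adjusted p = 0.369), but without replicate 1 of 14 days it was (-1.58, adjusted p = 0.041).

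Aqp1, the water channel of the red cell membrane, had 28.7, 4.54 and 22.1 CPM at 2 days and 88.5, 64.3 and 86.2 CPM at 7 days. Aqp1 had 0.554, 1.74 and 2.13 CPM at 14 days and 2.45, 0.715 and 0.492 CPM at 6 weeks. Its libraries of 7 days did not overlap with those of 2 days, nor those of 2 days with the later ages. Aqp1 was higher at 7 days than at 2 days (log2 fold change 2.11 ± 0.59, adjusted p = 0.0108) and lower at 14 days than at 7 days (log2 fold change -5.74 ± 0.72, adjusted p = 7.28e-05). Aqp1 is also made by the endothelium of vessels, and the summed level of 6 endothelial genes was 31.5 to 58.0 CPM at 2 days, 84.2 to 89.9 CPM at 7 days, 33.4 to 62.7 CPM at 14 days and 124 to 128 CPM at 6 weeks. Of the 5 endothelial genes tested, at 6 weeks against 2 days 2 were higher and 3 lower (median log2 fold change -1.21). At 6 weeks against 7 days 1 was higher and 3 were lower (median -1.84). Of all genes 19.7% were higher and 20.7% lower in the first of these comparisons, and 26.6% higher and 24.5% lower in the second. The endothelial sum was highest at 6 weeks while most of the endothelial genes were lower there, as Aqp1 was. Their part in the level of Aqp1 was not tested. Bpgm, which makes the phosphoglycerate that loosens oxygen from haemoglobin, had 9.32, 5.93 and 8.82 CPM at 2 days and 30.5, 21.8 and 32.3 CPM at 7 days. It had 6.57, 7.56 and 7.50 CPM at 14 days and 6.99, 6.86 and 6.91 CPM at 6 weeks. Its 3 libraries of 6 weeks were nearly equal. It was higher at 7 days than at 2 days (log2 fold change 1.81 ± 0.19, adjusted p = 1.33e-05) and lower at 14 days than at 7 days (log2 fold change -1.97 ± 0.19, adjusted p = 1.18e-05), and it was not called at 6 weeks against 2 days (log2 fold change -0.22 ± 0.19, adjusted p = 0.381).

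Along the haem pathway every enzyme except Ppox had its highest mean at 7 days, but the size of the change differed between them. At 7 days against 2 days 4 of 7 were higher, and at 14 days against 7 days 6 were lower and 1 was higher. Alas2, the erythroid form of the first enzyme, which joins glycine and succinyl-CoA, had 12.6, 6.22 and 11.2 CPM at 2 days and 88.0, 58.7 and 86.3 CPM at 7 days. Levels were 1.37, 6.64 and 5.23 CPM at 14 days and 11.5, 5.46 and 3.03 CPM at 6 weeks. All libraries of 7 days were above all others, and the ranges of 2 days, 14 days and 6 weeks overlapped. Alas2 was higher at 7 days than at 2 days (log2 fold change 2.95 ± 0.52, adjusted p = 0.000639) and lower at 14 days than at 7 days (log2 fold change -4.13 ± 0.56, adjusted p = 0.000118). It was not called at 14 days against 2 days (log2 fold change -1.18 ± 0.52, adjusted p = 0.118) or at 6 weeks against 2 days (log2 fold change -0.59 ± 0.51, adjusted p = 0.377). Of its exon bases 12.9% are shared with the neighbour Apex2, which had 2192 counts in all against 11548 of Alas2.

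Alad, which joins pairs of the product of Alas2 into a ring, had 11.1 ± 6.62 CPM at 2 days, 16.6 ± 3.14 CPM at 7 days, 2.59 ± 1.03 CPM at 14 days and 3.79 ± 0.307 CPM at 6 weeks and was lower at 14 days than at 7 days (log2 fold change -2.68 ± 0.45, adjusted p = 0.000523) but not called at 7 days against 2 days (log2 fold change 0.58 ± 0.41, adjusted p = 0.264). Uros, which closes the large ring of the pathway, had 4.77 ± 0.764 CPM at 2 days, 13.7 ± 2.75 CPM at 7 days, 5.65 ± 0.280 CPM at 14 days and 5.03 ± 0.702 CPM at 6 weeks. Uros was higher at 7 days than at 2 days (log2 fold change 1.52 ± 0.18, adjusted p = 4.25e-05) and lower at 14 days than at 7 days (log2 fold change -1.28 ± 0.18, adjusted p = 0.000175). Urod, the decarboxylase after it, had 31.1, 27.1 and 27.9 CPM at 2 days and 35.5, 33.2 and 35.1 CPM at 7 days. The 14-day libraries had 24.4, 22.6 and 23.0 CPM, and the 6-week libraries had 27.4, 25.2 and 27.3 CPM. The libraries of 7 days were above all others, but by a small margin. Urod was called higher at 7 days than at 2 days (log2 fold change 0.27 ± 0.09, adjusted p = 0.032), which was lost without replicate 3 of 2 days, replicate 1 of 7 days or replicate 3 of 7 days (0.30 to 0.31, adjusted p from 0.055 to 0.0624). In a fit of the 2 ages alone it was 0.27 without the replicate block (adjusted p = 0.102) and 0.27 with it (adjusted p = 0.108). Without the filter on low counts it was 0.33 (adjusted p = 0.0566). Urod was lower at 14 days than at 7 days (log2 fold change -0.57 ± 0.09, adjusted p = 0.000496).

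Cpox, coproporphyrinogen oxidase of mitochondria, had 24.6 ± 15.8 CPM at 2 days, 66.6 ± 10.8 CPM at 7 days, 5.67 ± 1.63 CPM at 14 days and 7.36 ± 1.25 CPM at 6 weeks. Cpox was higher at 7 days than at 2 days (log2 fold change 1.43 ± 0.40, adjusted p = 0.0103, 2.05 without replicate 1 of 2 days) and lower at 14 days than at 7 days (log2 fold change -3.55 ± 0.44, adjusted p = 6.26e-05). Ppox, the next enzyme, had 67.2, 85.5 and 69.4 CPM at 2 days and 57.6, 64.2 and 65.1 CPM at 7 days. Its later levels were 91.0, 85.3 and 80.6 CPM at 14 days and 73.3, 64.3 and 64.5 CPM at 6 weeks. All its 14-day libraries were above all its 7-day libraries, and it was the only one of the 33 to be higher at 14 days than at 7 days (log2 fold change 0.46 ± 0.11, adjusted p = 0.00617). Of the exon bases of Ppox 17.5% are shared with B4galt3, which had 66545 counts in all against 31785 of Ppox, so part of this level may be reads of that gene. Fech, which puts iron into the finished ring, had 40.1, 14.9 and 29.9 CPM at 2 days and 37.4, 30.3 and 38.2 CPM at 7 days. Fech had 11.9, 12.5 and 15.6 CPM at 14 days and 18.6, 14.2 and 16.7 CPM at 6 weeks. Replicate 2 of 2 days lay at the level of the later ages. Fech was not called at 7 days against 2 days (log2 fold change 0.32 ± 0.27, adjusted p = 0.352), but was so without replicate 1 of 2 days (0.71, adjusted p = 0.0398), and it was lower at 14 days than at 7 days (log2 fold change -1.40 ± 0.28, adjusted p = 0.00145).

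The highest mean was 1.80 times the lowest for Slc25a37 and 1.41 times for Slc25a38, both mitochondrial carriers. Slc25a37, mitoferrin-1, which brings iron into mitochondria, had 205, 326 and 225 CPM at 2 days and 283, 313 and 292 CPM at 7 days. It had 176, 181 and 182 CPM at 14 days and 191, 147 and 155 CPM at 6 weeks. Libraries of 2 and 7 days overlapped, and all later ones were below them. Slc25a37 was not called at 7 days against 2 days (log2 fold change 0.23 ± 0.16, adjusted p = 0.262), but without replicate 2 of 2 days, its highest library, it was (0.48, adjusted p = 0.00455). Slc25a37 was lower at 14 days than at 7 days (log2 fold change -0.72 ± 0.16, adjusted p = 0.00362). Slc25a38, a carrier that brings glycine in for Alas2, had 40.5, 38.2 and 44.0 CPM at 2 days and 32.9, 28.8 and 30.6 CPM at 7 days. Levels were 40.0, 31.1 and 32.4 CPM at 14 days and 30.3, 26.2 and 30.7 CPM at 6 weeks. The 7-day libraries were all below the 2-day libraries, and it was the only one of the 33 to be lower at 7 days than at 2 days (log2 fold change -0.41 ± 0.12, adjusted p = 0.0134). That call was lost without replicate 1 of 2 days (-0.36, adjusted p = 0.0521), replicate 3 of 2 days (-0.30, adjusted p = 0.11), replicate 2 of 7 days (-0.36, adjusted p = 0.055) or replicate 3 of 7 days (-0.35, adjusted p = 0.0817). It was also lost with library totals alone (-0.27, adjusted p = 0.138) and without the filter on low counts (-0.35, adjusted p = 0.0615). Slc25a38 was not called at 14 days against 7 days (log2 fold change 0.16 ± 0.12, adjusted p = 0.28).

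Trim10, a ring-finger protein needed for red cell differentiation in mouse cells, had 3.52, 1.02 and 2.90 CPM at 2 days and 18.1, 17.3 and 21.1 CPM at 7 days. The 14-day libraries had 0.117, 1.17 and 1.19 CPM, and the 6-week libraries had 2.84, 1.06 and 0.465 CPM. Its 7-day libraries were far above all others, and the 6-week libraries overlapped with those of 14 days and of 2 days. Trim10 was higher at 7 days than at 2 days (log2 fold change 2.91 ± 0.63, adjusted p = 0.00237) and lower at 14 days than at 7 days (log2 fold change -4.50 ± 0.70, adjusted p = 0.00031), and not called at 6 weeks against 2 days (log2 fold change -0.79 ± 0.64, adjusted p = 0.356). Tspo2, the erythroid relative of a cholesterol-binding protein, had 4.14, 0.889 and 2.74 CPM at 2 days and 5.96, 4.95 and 6.71 CPM at 7 days. Its later levels were 0.0875, 0.463 and 0.432 CPM at 14 days and 0.557, 0.132 and 0.109 CPM at 6 weeks. Its 7-day libraries were all above its 2-day libraries, and these were above all later ones. It was lower at 14 days than at 7 days (log2 fold change -4.14 ± 0.66, adjusted p = 0.000365) and not called at 7 days against 2 days (log2 fold change 1.17 ± 0.55, adjusted p = 0.0944). In the fit of those 2 ages alone with the replicate block its value was 1.35 (adjusted p = 0.0235), and without replicate 1 of 2 days it was 1.73 (adjusted p = 0.0326).

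**Figure D3:**
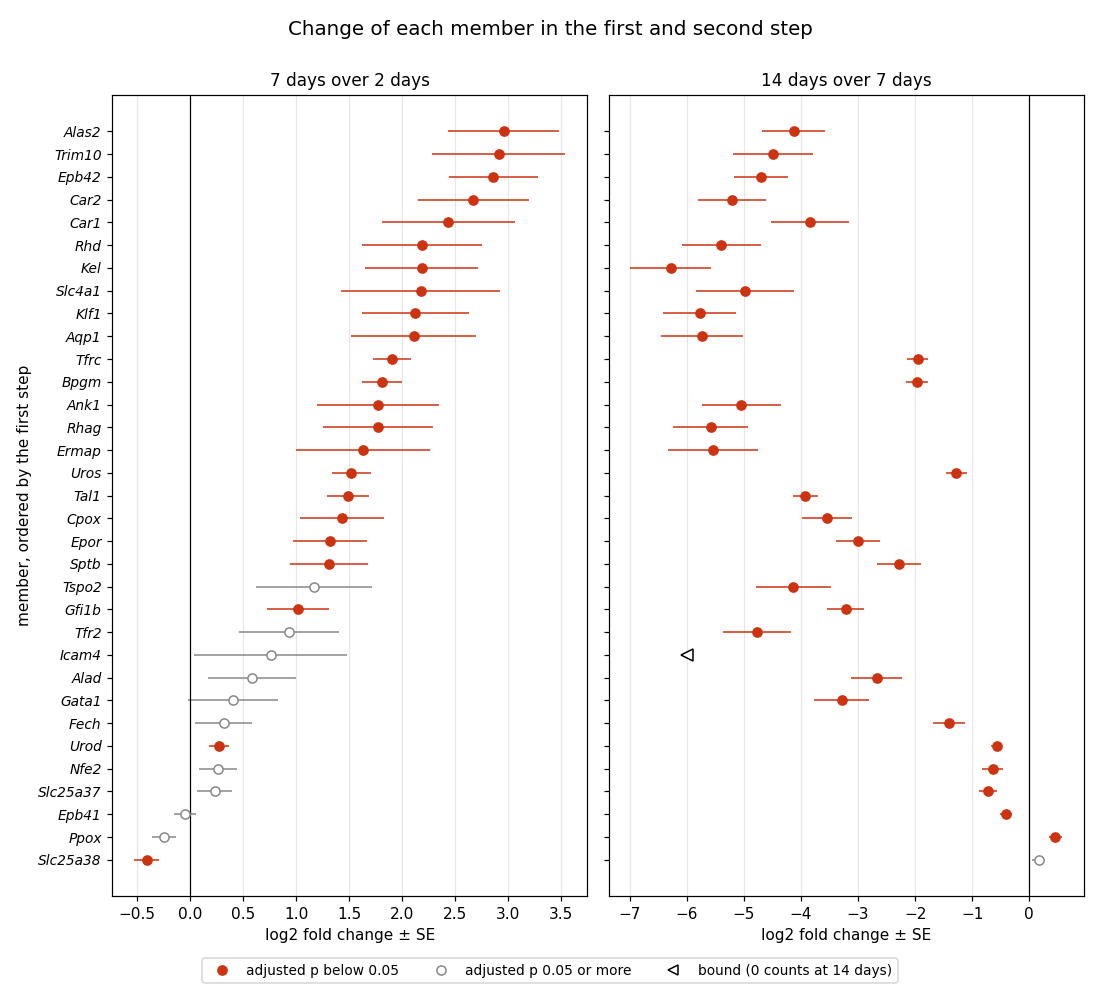
Log2 fold change of each of the 33 genes, with its SE as a bar, at 7 days against 2 days and at 14 days against 7 days, with genes in rows ordered by the first comparison; filled points have an adjusted p below 0.05, open points do not, and the triangle is the bound for Icam4. Most genes lie right of 0 in the first comparison and left of 0 in the second, and Ppox (0.46 at 14 days against 7 days) and Slc25a38 (-0.41 at 7 days against 2 days) lie on the other side.

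The genes separated again when 6 weeks was set against 2 days. Lower at 6 weeks by the widest margins were Gata1 (log2 fold change -5.28 ± 0.58, adjusted p = 2.06e-05), Rhag (log2 fold change -4.69 ± 0.69, adjusted p = 0.000213) and Ermap (log2 fold change -4.28 ± 0.77, adjusted p = 0.000907). Without replicate 1 of 6 weeks the values of Rhag and Ermap were -5.96 and -5.34. Not called were Nfe2, Epor, Bpgm, Alas2, Uros, Urod, Ppox and Trim10, with log2 fold changes from -0.79 to 0.19. Among the calls Slc4a1 (log2 fold change -2.40 ± 0.77, adjusted p = 0.0264) was lost without replicate 1 or 3 of 2 days or replicate 2 or 3 of 6 weeks (-2.25 to -1.86) or in a fit of the 2 ages alone (adjusted p = 0.0744), and was -3.58 without replicate 1 of 6 weeks. Fech (log2 fold change -0.78 ± 0.27, adjusted p = 0.0372) was lost in 8 of the 12 fits that left out 1 library (-0.87 to -0.43), with limma-voom (adjusted p = 0.069), with library totals alone (adjusted p = 0.0602) and in the fit of the 2 ages alone (adjusted p = 0.111). Epb42 (log2 fold change -1.33 ± 0.45, adjusted p = 0.032) was lost in 6 of the 12 (-1.34 to -0.90) and in the fit of the 2 ages alone (adjusted p = 0.0873). Car1 was lost without replicate 2 or 3 of 6 weeks (-2.30 and -2.06), Alad without replicate 1 of 2 days (-1.11) and Slc25a37 in the fit of the 2 ages alone (adjusted p = 0.0503). A p that misses the threshold does not show that the levels of those 8 genes were the same.

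Within an age the libraries differed in these genes. Replicate 1 of 2 days had the highest level in 28 of the 33 and replicate 2 the lowest in 29. At 7 days replicate 2 was the lowest in 29, at 14 days replicate 1 was the lowest in 25, and at 6 weeks replicate 1 was the highest in 31. The ratio of replicate 1 to replicate 2 of 2 days was 2 or more in 22 of the 33 and was highest for Slc4a1 at 8.75. It was 1.41 for Tal1 and 0.98 for Epb41, and it was 0.57 for Nfe2 and 0.63 for Slc25a37, which were higher in replicate 2. At 6 weeks the ratio of replicate 1 to replicate 3 was 2 or more in 17 of the 32 genes that had one, with the highest, 14.8, for Kel. The other 15 were Tal1, Nfe2, Epor, Tfrc, Sptb, Epb41, Bpgm, Alad, Uros, Urod, Cpox, Ppox, Fech, Slc25a37 and Slc25a38. The ratio of Kel stands for 29 counts over 2. In replicate 3 of 6 weeks Rhag had 3 counts, Tspo2 4, Gata1 and Tfr2 6 and Klf1 8, so the counting error of such ratios is large. Slc4a1 had more, with 680, 193 and 99 counts in the 6-week libraries. The 6-week libraries that differed in Kel, Klf1 and Slc4a1 were nearly equal in Epor (7.11, 6.75 and 6.18 CPM) and Bpgm (6.99, 6.86 and 6.91 CPM).

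Ratios to Rhag within a library show the unequal course of the genes without the library's own scaling. They were chosen after the values were seen and are given as a description. The 7-day mean of Rhag was 88.4 times its 6-week mean, the largest fall of the genes followed here between these ages. The mean level of any other of them over that of Rhag therefore rises from 7 days to 6 weeks by the choice of Rhag, and only the size of the rise differs. The counts of Alas2 over those of Rhag were 1.05, 2.66 and 1.77 at 2 days, 3.67, 2.95 and 3.23 at 7 days, 5.88, 17.4 and 6.26 at 14 days and 19.6, 41.2 and 37.0 at 6 weeks. The ratios as counted did not overlap between the 4 ages and were higher at each later age, but their counting intervals overlapped between each age and the next. The 95% exact binomial interval, for counting error alone, ran from 2.02 to 3.55 in replicate 2 of 2 days, from 2.71 to 3.21 in replicate 2 of 7 days and from 2.75 to 14.4 in replicate 1 of 14 days. It ran from 10.2 to 32.4 in replicate 2 of 14 days, from 12.6 to 32.0 in replicate 1 of 6 weeks and from 12.3 to 182 in replicate 3 of 6 weeks. The counts of Slc4a1 over Rhag were 6.35, 3.72 and 8.88 at 2 days, 8.84, 9.17 and 8.99 at 7 days, 10.1, 25.0 and 9.74 at 14 days and 32.4, 38.6 and 33.0 at 6 weeks. In replicate 3 of 6 weeks, with 3 counts of Rhag, that interval ran from 11 to 163. Gata1 over Rhag had another course, at 1.49, 3.08 and 1.78 at 2 days, 0.79, 0.68 and 0.58 at 7 days, 2.00, 6.64 and 2.29 at 14 days and 0.81, 2.20 and 2.00 at 6 weeks. As counted, the 7-day ratios were below those of 2 and 14 days. They were not set apart from 6 weeks, where intervals ran from 0.401 to 1.61 (replicate 1) and 0.427 to 12.4 (replicate 3). By counting error they were not set apart from 14 days either. The interval ran from 0.723 to 0.874 in replicate 1 of 7 days and from 0.808 to 5.4 in replicate 1 of 14 days.

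**Figure D4:**
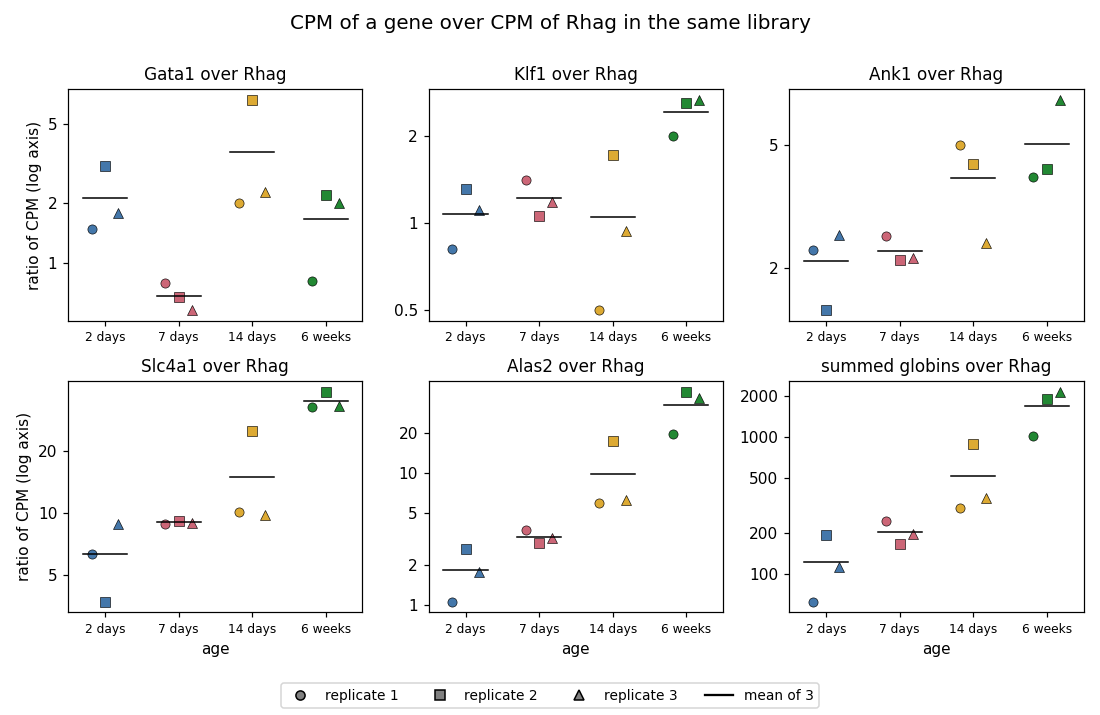
Counts of a gene, or of the summed globins, divided by those of Rhag in the same library, on a log axis by age, with a symbol for each replicate and a line at the mean of 3 libraries. The ratio of Alas2 as counted is 19.6 to 41.2 at 6 weeks against 1.05 to 2.66 at 2 days, and that of Gata1 is lower at 7 days than at 2 days. Rhag had 8 to 31 counts per library at 14 days and 3 to 21 at 6 weeks, so the counting intervals there are wide. Of the genes followed here Rhag fell the most between 7 days and 6 weeks, so a rise of these ratios between those ages comes with the choice of Rhag.

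Further genes of red cells were counted beside these. Of 24 further red cell genes 23 were tested, and at 7 days against 2 days 15 were higher (65.2%, against 22.9% of all genes) and 1 lower, with a median log2 fold change of 1.27. At 14 days against 7 days 1 was higher and 19 were lower (82.6%, against 21.9%), with a median of -2.64, and at 6 weeks against 2 days 1 was higher and 13 were lower (56.5%, against 20.7%), with a median of -1.5. The medians over all genes were -0.01, 0.02 and -0.04. Of the 23, 13 were lower at 14 days than at 2 days (56.5%, against 12.3% of all genes). At 6 weeks against 7 days 2 were higher (8.7%, against 26.6%) and 19 lower (82.6%, against 24.5%). At 6 weeks against 14 days 1 was higher (4.35%, against 9.26%). Abcg2, an exporter that carries porphyrins among other things, had 7.31 ± 0.309 CPM at 2 days, 8.54 ± 1.68 CPM at 7 days, 1.70 ± 0.307 CPM at 14 days and 2.08 ± 0.0586 CPM at 6 weeks. Abcg2 was lower at 14 days than at 7 days (log2 fold change -2.33 ± 0.19, adjusted p = 4.34e-06) and not called at 7 days against 2 days (log2 fold change 0.22 ± 0.18, adjusted p = 0.313). Xk, the membrane partner of Kel, had 10.3 ± 0.808 CPM at 2 days, 29.3 ± 1.19 CPM at 7 days, 10.6 ± 0.205 CPM at 14 days and 9.20 ± 1.74 CPM at 6 weeks, and was higher at 7 days than at 2 days (log2 fold change 1.5 ± 0.14, adjusted p = 5.15e-06). It was not called at 6 weeks against 2 days (log2 fold change -0.17 ± 0.14, adjusted p = 0.345). Steap3, the reductase that frees iron taken up with transferrin, had 6.40 ± 2.66 CPM at 2 days, 20.5 ± 5.05 CPM at 7 days, 1.39 ± 0.487 CPM at 14 days and 2.54 ± 0.143 CPM at 6 weeks, and was lower at 14 days than at 7 days (log2 fold change -3.87 ± 0.34, adjusted p = 6.74e-06).

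Of 17 other genes of haem and mitochondrial iron handling, 11 were higher (64.7%, against 22.9% of all genes) and 2 lower at 7 days than at 2 days, with a median of 0.75. At 14 days against 7 days 3 were higher and 10 lower (58.8%, against 21.9%), with a median of -0.88. Of the 17, at 6 weeks against 14 days, 6 were higher (35.3%, against 9.26% of all genes) and 0 lower, with a median of 0.21 against 0.00 over all genes. The lower count was 1 at an unadjusted p below 0.05, 1 by DESeq2 and 0 by limma-voom. Of the 17, 3 were lower at 14 days than at 2 days (17.6%, against 12.3% of all genes). At 6 weeks against 7 days 4 were higher (23.5%, against 26.6%) and 9 lower (52.9%, against 24.5%). At 6 weeks against 2 days 5 were higher (29.4%, against 19.7%) and 3 lower (17.6%, against 20.7%). With so few genes, the shares near those of all genes are no result about the list. The 3 lower calls at 14 days against 2 days came to between 0 and 5 when 1 library was left out, with 0 without replicate 3 of 2 days and 5 without replicate 2 of 2 days. Alas1, the form of the first haem enzyme that other tissues use, had 185 ± 40.9 CPM at 2 days, 412 ± 31.9 CPM at 7 days, 145 ± 10.6 CPM at 14 days and 231 ± 20.4 CPM at 6 weeks. Alas1 was higher at 7 days than at 2 days (log2 fold change 1.15 ± 0.15, adjusted p = 7.8e-05) and at 6 weeks than at 14 days (log2 fold change 0.68 ± 0.15, adjusted p = 0.00866). Blvrb, a biliverdin reductase, had 28.1 ± 6.71 CPM at 2 days, 83.6 ± 13.8 CPM at 7 days, 17.2 ± 4.72 CPM at 14 days and 49.3 ± 2.47 CPM at 6 weeks and was also higher at 6 weeks than at 14 days (log2 fold change 1.52 ± 0.22, adjusted p = 0.000675). Abcb6, a porphyrin transporter, had 5.83 ± 1.43 CPM at 2 days, 16.2 ± 2.24 CPM at 7 days, 5.05 ± 0.910 CPM at 14 days and 5.11 ± 0.230 CPM at 6 weeks and was not called there (log2 fold change 0.02 ± 0.20, adjusted p = 0.972). All 3 had their highest mean at 7 days.

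The globins, products that the genes above serve, were measured in the same libraries. Of 7 globin genes 4 passed the filter. At 7 days against 2 days 4 of 4 were higher, where 22.9% of all genes were higher. At 14 days against 7 days 4 of 4 were lower, where 21.9% of all genes were lower. All 4 were lower at 6 weeks than at 7 days, where 24.5% of all genes were lower. Lower calls at 14 days against 2 days numbered 0 by edgeR's quasi-likelihood test, 3 by DESeq2, 3 by limma-voom and 4 at an unadjusted p below 0.05. At 6 weeks against 2 days and at 6 weeks against 14 days the number was 0 by each of these, and without both libraries that stand apart it was 3 at 6 weeks against 2 days and 2 at 14 days against 2 days. Hbb-bs, a beta globin, had 225 ± 41.5 CPM at 2 days, 1950.0 ± 562 CPM at 7 days, 93.2 ± 56.6 CPM at 14 days and 133 ± 88.8 CPM at 6 weeks. Hbb-bt, the beta globin beside it, had 57.4 ± 15.0 CPM at 2 days, 421 ± 89.2 CPM at 7 days, 19.4 ± 12 CPM at 14 days and 29.7 ± 22.9 CPM at 6 weeks. Hba-a2, an alpha globin, had 213 ± 57.5 CPM at 2 days, 1561 ± 413 CPM at 7 days, 77.2 ± 49.3 CPM at 14 days and 118 ± 73.6 CPM at 6 weeks. At 7 days against 2 days the values were 3.11 ± 0.56, 2.87 ± 0.57 and 2.87 ± 0.57 on the log2 scale in that order (adjusted p = 0.000672, 0.00135 and 0.00136). The summed globin level was 745, 451 and 702 CPM at 2 days, 5869.8, 3318 and 5260.1 CPM at 7 days, 70.2, 341 and 298 CPM at 14 days and 597, 251 and 177 CPM at 6 weeks. Replicate 1 of 14 days was again the lowest of its age and replicate 1 of 6 weeks the highest. Globin genes of the same kind, alpha or beta, can be near-identical copies, so the division of reads among such copies is uncertain. The 4 genes tested are therefore not separate observations.

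Genes that mark other cell types also differed between the ages, and their part in the levels above was not tested. For 10 mast cell genes, a lineage that also depends on Gata1, the summed level was 3912 to 6411 CPM at 2 days, 615 to 821 CPM at 7 days, 1024 to 1099 CPM at 14 days and 1419 to 1635 CPM at 6 weeks. All 10 were lower at 7 days than at 2 days, where 25.8% of all genes were lower. The later sums do not stand for most of the list. At 14 days against 7 days 8 were lower and 1 higher (median log2 fold change -4.89). At 6 weeks against 7 days 8 were lower and 1 higher (median -3.49). Of all genes 21.9% were lower and 24% higher in the first of these comparisons, and 24.5% lower and 26.6% higher in the second. Tpsab1 and Mrgprb1 had 0 counts at 14 days and at 6 weeks. The lowest mast cell sum at 2 days was that of replicate 2, the library lowest in most of the 33 genes. The 10 genes of red pulp macrophages, which take up old red cells, summed to 310.5 to 338 CPM at 2 days, 1514 to 1537 CPM at 7 days, 293 to 749.9 CPM at 14 days and 2532 to 2707 CPM at 6 weeks. All 10 were higher at 7 days than at 2 days, and all 10 were higher at 6 weeks than at 14 days. Of all genes 22.9% and 9.26% were higher in these comparisons. At 14 days against 7 days 8 of the 10 were lower (80.0%, against 21.9% of all genes) and 0 higher. The median log2 fold change there was -1.51. This list thus shared the direction of most of the 33 genes in both steps up to 14 days. At 6 weeks against 7 days 6 were higher (60.0%, against 26.6%) and 0 lower, unlike the 33 genes. Replicate 1 of 14 days was lowest in the red pulp macrophage sum too.

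The 9 megakaryocyte and platelet genes, a lineage that shares Gata1, Tal1, Nfe2 and Gfi1b with red cells, summed to 96.0 to 129 CPM at 2 days, 75.4 to 103 CPM at 7 days, 111 to 123 CPM at 14 days and 68.8 to 76.7 CPM at 6 weeks. At 7 days against 2 days 1 of the 9 was higher (11.1%, against 22.9% of all genes) and 2 were lower (22.2%, against 25.8%). At 14 days against 2 days 2 were higher and 6 lower, with a median log2 fold change of -0.96, where 12.8% of all genes were higher and 12.3% lower. At 14 days against 7 days 3 were higher (33.3%, against 24%) and 4 lower (44.4%, against 21.9%). The median there was -0.30, so this list did not share the wide step of the 33 genes. At 6 weeks 1 was higher and 5 were lower (55.6%) both against 7 days (median -1.23) and against 2 days (median -1.21), the direction of most of the 33 genes. Of all genes 26.6% were higher and 24.5% lower against 7 days, and 19.7% higher and 20.7% lower against 2 days. The 5 eosinophil genes belong to a further lineage that uses Gata1. At 7 days against 2 days 3 were higher (60.0%, against 22.9% of all genes) and 1 was lower (20.0%, against 25.8%). Their sum was 39.4 to 92.3 CPM at 2 days, 134 to 189 CPM at 7 days, 93.8 to 133 CPM at 14 days and 116 to 134 CPM at 6 weeks. The 6 progenitor genes summed to 125 to 277 CPM at 2 days, 96.8 to 114 CPM at 7 days, 56.4 to 79.8 CPM at 14 days and 30.9 to 41.6 CPM at 6 weeks. Of the 6, 1 was higher (16.7%, against 19.7% of all genes) and 5 were lower (83.3%, against 20.7%) at 6 weeks than at 2 days. Of 5 endothelial genes tested, 1 was higher at 7 days than at 2 days (20.0%, below the 22.9% of all genes) and 4 were lower at 14 days than at 7 days (80.0%, against 21.9%). All 12 cell cycle genes were higher at 7 days than at 2 days, where 22.9% of all genes were higher. At 14 days against 7 days 7 of the 12 were lower (58.3%, against 21.9%) and 0 higher. At 6 weeks against 7 days 11 were lower (91.7%, against 24.5%) and 0 higher. Of the 12 neutrophil genes 2 were higher (16.7%, below the 22.9% of all genes) and 5 lower (41.7%, against 25.8%) at 7 days than at 2 days. None of the megakaryocyte, eosinophil, progenitor, endothelial or red pulp macrophage markers was at 0 over the libraries of an age.

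**Figure D5:**
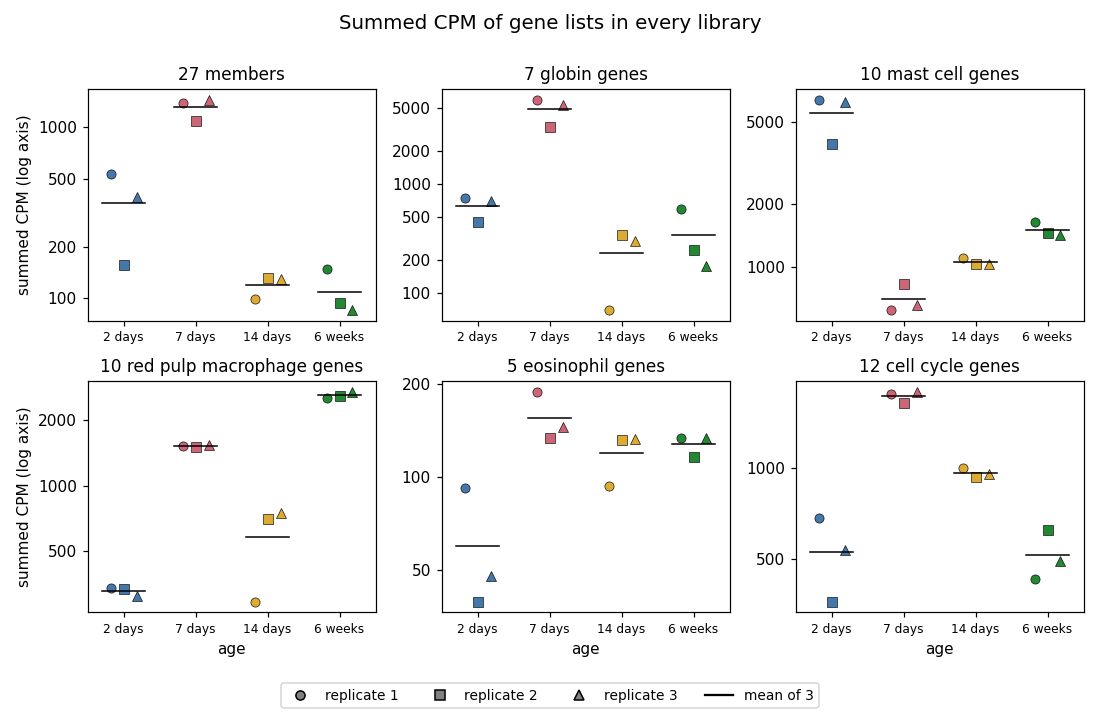
Summed CPM of 6 gene lists in each library, on log axes by age, with a symbol for each replicate and a line at the mean of 3 libraries. The first panel sums the 27 genes whose highest mean was at least 2 times their lowest, a selection made after the values were seen (1095 to 1446 CPM at 7 days against 158 to 537 CPM at 2 days); the globins and the cell cycle genes are also highest at 7 days, the mast cell genes at 2 days and the red pulp macrophage genes at 6 weeks.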

How the data were processed

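The 12 libraries, 3 per age, were made from polyadenylated RNA, with Trizol extraction and random-hexamer priming per the labels' protocols. The deposited table holds whole-number counts of each gene. RSEM 1.2.3, DESeq2 and the mouse build mm10 are named in the submitters' processing notes, which give no role for each. RSEM divides reads among similar genes, so the counts may be rounded estimates, and those of close copies among the globins are uncertain. The strand setting is not given in the sources used here.

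Of 38887 Ensembl identifiers 37570 were given a symbol and position from GENCODE M21 (GRCm38), and the other 1317 stayed in the library totals. Counts were scaled with TMM factors, which ran from 0.8275 to 1.103, and filtered with filterByExpr at a minimum count of 10, which left 15494 genes. Ages were compared with edgeR's quasi-likelihood test (edgeR 4.0.16, R 4.3.3) in 1 model of age over all 12 libraries, adjusted by Benjamini-Hochberg over all genes tested, with a threshold of 0.05. The SE of a log2 fold change is its size over the root of the F statistic. Simulated counts with seeded changes were used to check the scripts. An age with 0 counts was set to a floor of 3 counts over the age. Intervals and floors cover counting error only. Totals of 34495767 to 38795913 counts per library leave little counting error in all but the rarest transcripts.

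Alternatives were RLE factors, library totals alone, no filter, DESeq2 1.42.0, limma-voom (limma 3.58.1), each pair of ages alone, the replicate number as a block, and leaving out each library in turn. Leaving out both libraries that stand apart, and the block in the pair of 2 and 7 days alone, were added after the data were seen. Same-numbered libraries of 2 and 7 days deviated together from their age means, with correlations across genes of 0.344, 0.37 and 0.122, so those numbers were taken as pairs from the data, since the labels say nothing of pairing. Pairs entered only the fits with the replicate block. The main model held age alone, so its calls at 7 days against 2 days do not take pairs into account. In the other comparisons the correlations ran from -0.394 to 0.142 and the numbers were not taken as pairs. The 33 genes and all other lists were chosen with earlier results of these data known. All 33 are named, with values of each library for a fixed set and for those called against most others; of the pathway and globin lists the 3 with the smallest joint p are named. In the other red cell list Ahsp had no matching identifier. Promoters came from RefSeq tables of GRCm38.p6, searched on both strands. Protein sequences were not analysed here.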

Additional observations from a re-analysis of the deposited data

How the results depend on the processing

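The 33 genes were refitted in 6 comparisons under 21 alternative settings. Of the values that left out 1 library, 2244 kept direction and side of the threshold, 88 lost a call, 17 gained one and 27 turned sign. Of those under other settings, 1541 kept both, 34 lost a call, 29 gained one and 13 turned sign. The cause of these changes was not tested. With 1 library left out, the counts ran from 17 to 25 higher and 0 to 1 lower at 7 days against 2 days, stayed at 1 higher and 31 lower at 14 days against 7 days, and ran from 1 to 3 higher and 1 to 5 lower at 6 weeks against 14 days. They ran from 0 to 1 higher and 19 to 24 lower at 14 days against 2 days, 29 to 30 lower at 6 weeks against 7 days, and 0 to 1 higher and 21 to 25 lower at 6 weeks against 2 days. In the joint test 32 to 33 were called. The 1 lower call at 7 days against 2 days was 0 with library totals alone and without the filter on low counts. At 6 weeks against 14 days limma-voom gave 1 higher and 2 lower. At 14 days against 2 days 1 was higher with library totals alone and without both libraries that stand apart, and leaving out both gave 1 higher at 6 weeks against 2 days.

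No log2 fold change that turned sign was called. At 7 days against 2 days Epb41 was 0.10 with library totals alone and 0.011 without the filter. Without both libraries that stand apart, at 6 weeks against 14 days, Klf1 was -0.34, Tfr2 -0.36, Rhd -0.014 and Slc4a1 -0.0018, and with the replicate block Klf1 was -0.0061 and Tfr2 -0.0014. There Tfr2 was -0.068 with library totals alone and Kel -0.076 with limma-voom. At 6 weeks against 7 days Ppox was -0.062 with library totals alone, and at 6 weeks against 2 days Epor was -0.12 and Uros -0.015 without both libraries. Leaving out 1 library gave ranges across 0 at 6 weeks against 14 days for Klf1 -0.88 to 0.55, Tfr2 -0.35 to 0.55, Rhd -0.39 to 0.80, Kel -0.55 to 1.01, Slc4a1 -0.77 to 0.84, Epb42 -0.075 to 0.76, Aqp1 -1.29 to 0.085, Car2 -0.090 to 0.89, Alas2 -0.058 to 0.99, Trim10 -0.12 to 1.22 and Tspo2 -1.42 to 0.050. Other such ranges were Epb41 -0.078 to 0.061 at 7 days against 2 days, Tfrc -0.25 to 0.17 at 14 days against 2 days, and Nfe2 -0.065 to 0.32, Epor -0.12 to 0.63 and Uros -0.039 to 0.24 at 6 weeks against 2 days. With the replicate block over all 12 libraries the counts were 22 higher and 1 lower at 7 days against 2 days and 22 lower at 14 days against 2 days, and in the fit of 2 and 7 days alone they were 23 and 1. The block took away the calls of Slc4a1 (adjusted p = 0.0627) and Slc25a37 (adjusted p = 0.076) at 14 days against 2 days and added Sptb there (adjusted p = 0.0385). In the fit of 2 and 7 days alone the block added Tfr2 (adjusted p = 0.0354) and Tspo2 (adjusted p = 0.0235), while Urod was not called there with or without it. It changed no other call. Depth limits the genes with few counts at 14 days or 6 weeks, Icam4, Tfr2, Rhag, Klf1, Gata1, Kel and Tspo2 among them.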
